A study of Mus musculus with 8 samples.

Results

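Titin, nebulin, the M-band proteins and the myosin-binding proteins are described here through 9 genes, *Ttn*, *Neb*, *Myom1*, *Myom2*, *Myom3*, *Obsl1*, *Mybpc1*, *Mybpc2* and *Mybph*, out of 47643 genes in the deposited table. The genes were chosen by name, and each matched 1 row. Quadriceps muscle of C57BL/6 mice (per the labels, backcrossed to C57BL/6J per the methods) was compared between 4 *Nup210*-/- and 4 *Nup210*+/+ mice, with 1 RNA sequencing library per mouse. In the *Nup210*-/- mice exon 2 of *Nup210*, which encodes a transmembrane protein of the nuclear pore, was deleted by crossing loxP-flanked alleles with Hprt-Cre, so the deletion is not restricted to muscle. The *Nup210*+/+ mice carry the intact gene. The age and sex of the mice used for sequencing are not given in the sources used here.

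In the sarcomere, titin runs from the Z-disc to the M-band and works as a molecular spring and scaffold, while nebulin lies along the actin filaments and helps to set their length. Myomesins cross-link myosin filaments at the M-band, and obscurin-like 1 joins them to titin there. Myosin-binding protein C sits on the myosin filament and tunes cross-bridge cycling. It has a slow skeletal form, encoded by *Mybpc1*, and a fast skeletal form, encoded by *Mybpc2*. *Mybph* encodes the related myosin-binding protein H.

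Levels are transcripts of a gene per 1000000 transcripts of the library (TPM), corrected for transcript length, which puts genes on a common scale. How well this correction holds for very long transcripts such as that of *Ttn* was not tested. Read depth is unknown, and the 4 mice of each genotype give the only measure of error. For the comparison of genotypes TPM were scaled by a median-of-ratios factor of 0.936 to 1.12 per library, and log2(scaled TPM + 1) was tested with limma over 14229 genes whose mean reached 0.5 TPM. All 9 genes passed this filter. *Nup210* itself was listed at 8.81 to 11.93 TPM in the libraries labelled *Nup210*-/- and at 5.71 to 10.11 TPM in those labelled *Nup210*+/+. Its gene-level value does not show whether exon 2 is present, so genotypes are given as labelled. The muscle fiber genes *Acta1*, *Ckm*, *Myh4*, *Mylpf*, *Tnnt3*, *Tnni2*, *Pvalb* and *Atp2a1* summed to 104434 to 122140 TPM, and the heart muscle genes *Myh6*, *Nppa* and *Nppb* to 0.37 to 0.79 TPM. *Nup210*+/+ replicate 2 stood apart in 6 granulocyte precursor genes, at 381.69 TPM in sum against 0.31 to 2.12 TPM in the other libraries. *Nup210*+/+ replicate 3 had the highest sums of leukocyte, fibroblast and adipocyte genes.

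Upstream sequence is shown because the study asked about Mef2C, a transcription factor of muscle structural genes, and because matches differ among these genes. The study found that Mef2C targets altered in this muscle were mostly immune genes. It reported no change here in structural genes that Mef2C and Nup210 regulate in C2C12 myotubes. Sequence of the 250 bases before the RefSeq transcription start was found for 7 of the 9 genes on GRCm38.p6. For *Myom1* this start, chr17:71019557, lies inside the annotated gene, which begins at chr17:71002633. Its window is therefore not upstream of the whole gene. Of these, *Ttn* (chr2:76982548-76982797, minus strand) and *Myom3* (chr4:135759465-135759714, plus strand) hold a match to the MEF2 motif, *Myom1* (chr17:71019307-71019556, plus strand) holds a CArG box, the motif of serum response factor, and *Mybpc2* (chr7:44524670-44524919, minus strand) holds an MCAT motif, the motif of TEAD factors. These matches are in capitals in the sequences, written 5′ to 3′ on the strand of the gene.
Ttn: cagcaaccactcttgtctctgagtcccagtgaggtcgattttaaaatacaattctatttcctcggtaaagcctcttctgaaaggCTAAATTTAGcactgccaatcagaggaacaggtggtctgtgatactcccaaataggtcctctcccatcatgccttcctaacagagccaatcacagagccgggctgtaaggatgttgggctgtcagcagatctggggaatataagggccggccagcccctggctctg
Myom1: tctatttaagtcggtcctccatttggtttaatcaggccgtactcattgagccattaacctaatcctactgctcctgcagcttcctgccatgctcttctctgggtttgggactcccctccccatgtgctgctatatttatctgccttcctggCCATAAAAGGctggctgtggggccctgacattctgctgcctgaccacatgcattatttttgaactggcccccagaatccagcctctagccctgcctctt
Myom3: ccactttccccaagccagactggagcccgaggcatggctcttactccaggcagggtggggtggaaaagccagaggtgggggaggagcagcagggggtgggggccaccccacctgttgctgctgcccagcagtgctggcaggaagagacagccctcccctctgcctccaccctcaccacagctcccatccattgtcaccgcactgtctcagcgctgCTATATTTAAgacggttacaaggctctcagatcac
Mybpc2: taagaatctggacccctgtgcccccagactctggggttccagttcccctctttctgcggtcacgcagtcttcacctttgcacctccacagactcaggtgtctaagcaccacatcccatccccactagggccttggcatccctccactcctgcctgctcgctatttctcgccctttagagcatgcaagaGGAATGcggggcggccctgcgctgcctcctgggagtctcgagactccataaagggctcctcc
The MEF2 match began 166 bases before the start in *Ttn* and 35 bases before it in *Myom3*, the CArG box 99 bases before it in *Myom1*, and the MCAT motif 62 bases before it in *Mybpc2*. The MCAT motif (CATTCC, both strands) was also found in *Mybph*, together with the letters TATAAA on the reverse strand. Over the 32851 windows of this length the MEF2 motif was present in 2.92%, the CArG box in 1.47%, MCAT in 12.6% and TATAAA in 12.4%. The E-box CANNTG, bound by myogenic factors, was present in 7 of 7 windows and in 66.2% of all windows. A match describes letters in a window and was not tested as a site.

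The 9 genes covered a wide range of levels, which was ordered in nearly the same way in every library. *Mybpc2* was highest, with a mean over the 8 libraries of 1730 TPM (rank 45 of all genes), followed by *Neb* with 1227 TPM and *Mybpc1* with 708 TPM. *Myom1* (385 TPM), *Mybph* (370.3 TPM) and *Myom2* (354 TPM) came next, and *Ttn* (89.4 TPM), *Obsl1* (31.4 TPM) and *Myom3* (17.3 TPM) were lowest. Neighbours in this order did not overlap over the 8 libraries, except *Myom1* with *Mybph* (*Myom1* higher in 6 of 8) and *Mybph* with *Myom2* (*Mybph* higher in 5 of 8), which do not differ beyond their spread. Together the 9 genes took 0.428 to 0.531% of all TPM in a library.

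**Figure D1:**
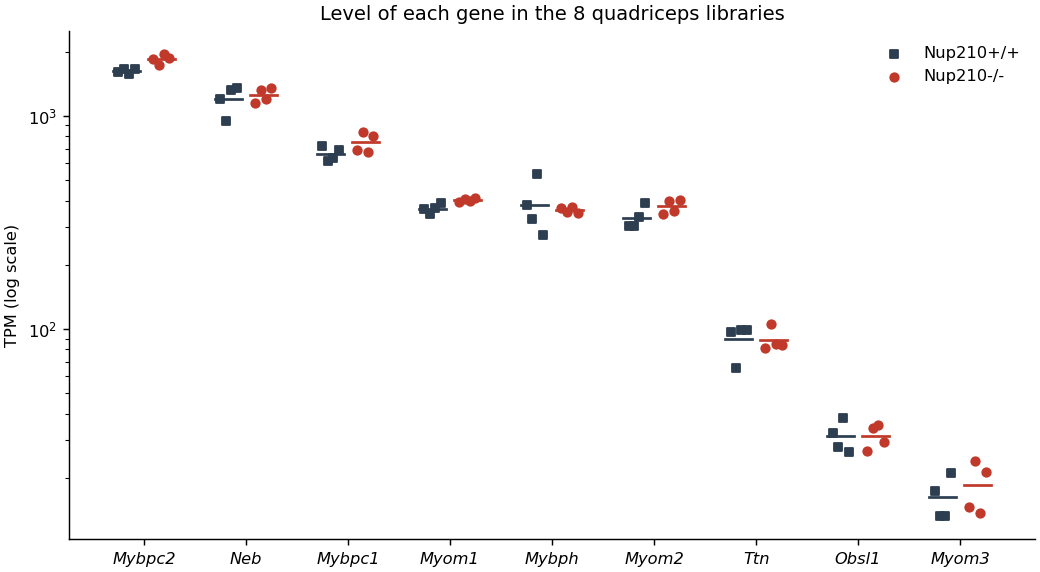
TPM of each of the 9 genes (log axis) in the 8 libraries; red circles are *Nup210*-/- and dark squares *Nup210*+/+ mice, and lines are means of 4. *Mybpc2* is highest and *Myom3* lowest in both genotypes, and the genotypes overlap for every gene but *Mybpc2* and *Myom1*.

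The question was whether loss of *Nup210* goes with a different level of these genes. None of the 9 passed an adjusted p of 0.05 (limma, Benjamini-Hochberg over all genes tested), where 16 of 14229 genes did (0.112%). At an unadjusted p of 0.05, 4 of the 9 were higher in *Nup210*-/-, namely *Myom1*, *Myom2*, *Mybpc1* and *Mybpc2*, against 7.00% of all genes tested that were higher at this level. All 9 estimates lay above 0, against 48.7% of all genes, with a median log2 fold change of 0.23 against -0.01 over all genes. With TPM as deposited these medians were 0.14 and -0.08, the estimates of *Ttn* and *Mybph* lay below 0, and 2 of the 9, *Myom1* and *Mybpc2*, were higher at an unadjusted p of 0.05. That count was also 2 with eBayes without trend and 2 to 5 with 1 library left out.

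*Mybpc2*, the fast form of myosin-binding protein C, had TPM of 1837.55, 1721.93, 1940.12 and 1862.81 in *Nup210*-/- replicates 1 to 4 and of 1598.77, 1648.42, 1572.27 and 1657.33 in *Nup210*+/+ replicates 1 to 4. Every *Nup210*-/- library was above every *Nup210*+/+ library, with means of 1841 ± 90.4 and 1619 ± 40.5 TPM (SD, n = 4). The log2 fold change was 0.28 (SE 0.0795, 95% interval 0.10 to 0.46, limma adjusted p = 0.189). On scaled TPM an exact permutation test gave p = 0.0286, the smallest that 70 labelings allow. Of the 9 genes only *Mybpc2* did not overlap between genotypes on scaled TPM, where 4.78% of all genes were higher without overlap. The gap was narrow, with 1744.85 in *Nup210*-/- replicate 2 against 1736.76 in *Nup210*+/+ replicate 4. With upper-quartile scaling the genotypes overlapped for *Mybpc2* too.

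The slow form *Mybpc1* had TPM of 690.28, 840.30, 675.11 and 804.48 in *Nup210*-/- and of 720.89, 612.27, 635.44 and 687.60 in *Nup210*+/+. The genotypes overlapped, since *Nup210*+/+ replicate 1 lay above *Nup210*-/- replicates 1 and 3. Its log2 fold change was 0.27 (SE 0.110, 95% interval 0.02 to 0.52, limma adjusted p = 0.309). Both forms had estimates above 0, and the share of *Mybpc1* in the TPM of the 3 myosin-binding genes averaged 25.5 ± 2.81% in *Nup210*-/- against 24.9 ± 1.78% in *Nup210*+/+ (SD, n = 4, exact permutation p = 0.771, Benjamini-Hochberg over 4 shares and ratios 0.914).

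*Mybph* had TPM of 369.01, 353.56, 374.89 and 348.18 in *Nup210*-/- and of 380.69, 327.40, 532.39 and 276.50 in *Nup210*+/+. The *Nup210*-/- libraries lay within the range of the *Nup210*+/+ libraries, in which replicate 3 was highest and replicate 4 lowest of all 8. The log2 fold change was 0.07 (SE 0.135, 95% interval -0.24 to 0.37, limma adjusted p = 0.848), and it was -0.03 with TPM as deposited and also without *Nup210*+/+ replicate 4. Its share among the 3 myosin-binding genes was 12.2 ± 0.526% against 14.2 ± 3.79% (SD, n = 4, exact permutation p = 0.457).

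Among the myomesins, *Myom1*, present in all striated fibers, had TPM of 392.14, 408.29, 399.89 and 412.04 in *Nup210*-/- and of 364.82, 345.90, 367.28 and 387.40 in *Nup210*+/+. On TPM as deposited the genotypes did not overlap, as for *Mybpc2*, where 1.54% of all genes were higher without overlap. On scaled TPM *Nup210*+/+ replicate 4 reached 405.97 and lay above *Nup210*-/- replicate 3 at 398.23. Its log2 fold change was 0.23 (SE 0.0757, 95% interval 0.06 to 0.40, limma adjusted p = 0.222).

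*Myom2*, the M-band protein of fast fibers, had TPM of 347.37, 398.52, 357.71 and 400.33 in *Nup210*-/- and of 302.77, 302.26, 332.96 and 391.31 in *Nup210*+/+. All *Nup210*-/- libraries were above *Nup210*+/+ replicates 1 to 3, and replicate 4 lay among them. The log2 fold change was 0.28 (SE 0.117, 95% interval 0.01 to 0.54, limma adjusted p = 0.330). Without *Nup210*+/+ replicate 4 the estimates were 0.30 for *Myom1*, 0.40 for *Myom2* and 0.33 for *Mybpc2*, with limma adjusted p of 0.0700, 0.0700 and 0.0971. These were the lowest adjusted p with 1 library left out, and the highest were 0.405, 0.528 and 0.380.

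*Myom3*, the myomesin of intermediate fibers, had TPM of 14.65, 24.04, 13.66 and 21.30 in *Nup210*-/- and of 17.36, 13.29, 13.26 and 21.17 in *Nup210*+/+. Each genotype held both low and high libraries. Its log2 fold change was 0.25 (SE 0.230, 95% interval -0.27 to 0.77, limma adjusted p = 0.651). With 1 library left out it ranged from 0.12, without *Nup210*-/- replicate 2, to 0.41, without *Nup210*+/+ replicate 4. *Myom3* made up 2.29 ± 0.524% of myomesin TPM in *Nup210*-/- against 2.26 ± 0.387% in *Nup210*+/+ (SD, n = 4, exact permutation p = 0.914). *Obsl1*, which also takes part in a ubiquitin ligase complex, lay between 26.76 and 35.57 TPM in *Nup210*-/- and between 26.55 and 38.14 TPM in *Nup210*+/+, with a log2 fold change of 0.11 (SE 0.0981, 95% interval -0.11 to 0.33, limma adjusted p = 0.636), and of 0.06 without *Nup210*+/+ replicate 2 and 0.17 without *Nup210*-/- replicate 1.

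**Figure D2:**
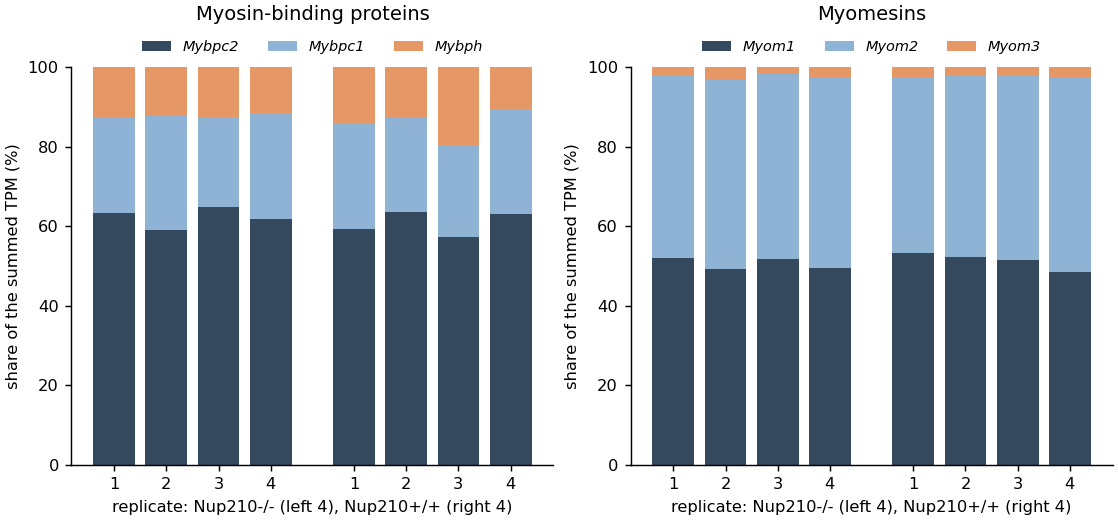
Stacked shares (percent) of *Mybpc2*, *Mybpc1* and *Mybph* in their summed TPM, and of *Myom1*, *Myom2* and *Myom3* in theirs, in each replicate of *Nup210*-/- (left 4 bars) and *Nup210*+/+ (right 4 bars). The share of *Mybph* is largest in *Nup210*+/+ replicate 3, at 19.4%, and *Myom3* stays below 3% in every library.

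*Ttn* had TPM of 81.12, 105.90, 85.08 and 83.59 in *Nup210*-/- and of 96.53, 65.18, 99.20 and 98.49 in *Nup210*+/+. *Nup210*+/+ replicate 2 was the lowest of all 8 libraries, and the other *Nup210*+/+ libraries lay above 3 of the 4 *Nup210*-/- libraries. Its estimate on the log2 scale was 0.09 (SE 0.147, 95% interval -0.24 to 0.42, limma adjusted p = 0.806). It was -0.06 without *Nup210*+/+ replicate 2, the library with granulocyte precursor genes.

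*Neb* had TPM of 1144.07, 1319.88, 1202.42 and 1345.42 in *Nup210*-/- and of 1194.78, 941.64, 1312.63 and 1351.25 in *Nup210*+/+. *Nup210*+/+ replicate 2 was again lowest and the other libraries overlapped. The log2 fold change was 0.17 (SE 0.127, 95% interval -0.12 to 0.46, limma adjusted p = 0.573) and 0.05 without that library, and 0.27 without *Nup210*+/+ replicate 4. The log2 ratio of *Neb* to *Ttn* TPM averaged 3.82 ± 0.151 in *Nup210*-/- against 3.75 ± 0.0937 in *Nup210*+/+ (SD, n = 4, exact permutation p = 0.429).

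*Ttn* and *Neb* have the longest transcripts of the 9, with longest coding transcripts of 106824 bases in 347 exons and 22489 bases in 157 exons on GRCm38. In 291 other genes with a transcript of at least 10000 bases, a length chosen after values were seen, the median log2 deviation from the 8-library mean was also lowest in *Nup210*+/+ replicate 2, at -0.09 against -0.04 to 0.04 in the other libraries. *Ttn* and *Neb* lay further down in that library, at -0.49 and -0.42. The part of transcript length in these values was not tested.

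**Figure D3:**
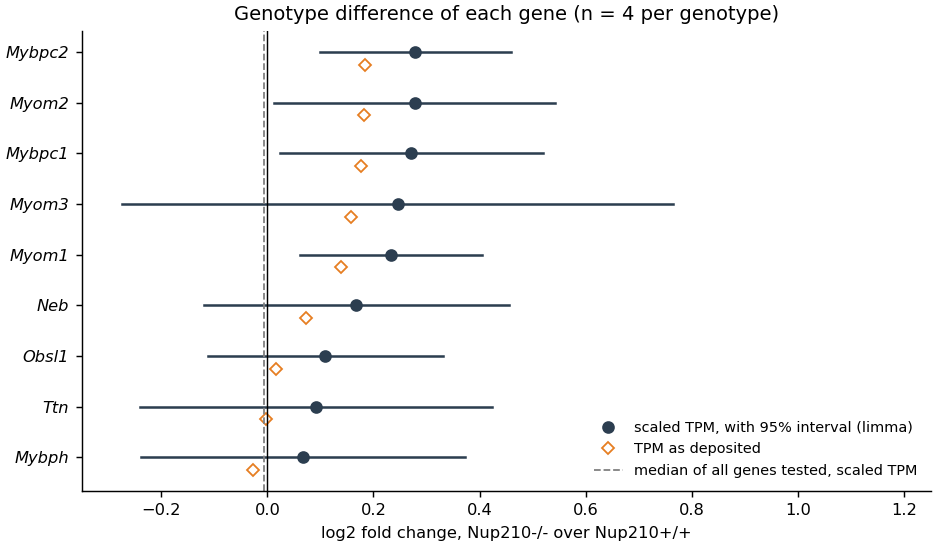
Log2 fold change (*Nup210*-/- over *Nup210*+/+) of the 9 genes; filled points are scaled TPM with 95% limma intervals, open diamonds are TPM as deposited, and the dashed line is the median of all genes tested. All 9 filled points lie above 0, the diamonds of *Ttn* and *Mybph* lie below it, and the intervals of *Myom1*, *Myom2*, *Mybpc1* and *Mybpc2*, which are not adjusted over genes, do not include 0.

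Sums of some other cell types differed between genotypes beside these estimates. Those of endothelial, adipocyte and Schwann cell genes overlapped between genotypes. The 7 leukocyte genes summed to 104 to 118 TPM in *Nup210*-/- and 128 to 259 TPM in *Nup210*+/+, without overlap. The 4 fibroblast genes summed to 526 to 635 TPM and 659 to 1048 TPM, also without overlap. A single gene made up most of the leukocyte and of the fibroblast sum, *Lyz2* (means 96.3 and 163.7 TPM) and *Dcn* (means 450.8 and 623.0 TPM). Within these lists *Cd68*, *Dcn* and *Pdgfra*, among others, overlapped between genotypes on their own. The muscle fiber sum was 112293 to 122140 TPM in *Nup210*-/- and 104434 to 112849 TPM in *Nup210*+/+, with overlap. Of the leukocyte genes, the T-cell gene *Cd3e* had means below 0.5 TPM in both genotypes. In whole muscle fewer cells of a type and less RNA per cell cannot be told apart, and the part of these differences in the estimates of the 9 genes was not tested. Estimates of 8 of 8 muscle fiber genes lay above 0, against 48.7% of all genes tested. Their median was 0.18, from 0.09 for *Pvalb* to 0.30 for *Myh4*, and none passed the test.

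Some of these genes are described as slow forms and others as fast forms. Their levels were therefore also set against the slow-fiber level of each library, the mean log2 deviation of 10 slow-fiber genes such as *Myh7* and *Tnnt1*. This level was -0.48, 0.32, -0.50 and 0.35 in *Nup210*-/- replicates 1 to 4 and 0.32, -0.42, 0.00 and 0.40 in *Nup210*+/+ replicates 1 to 4. Each genotype thus held low and high libraries, with *Nup210*+/+ replicate 3 between them. No slope on this level passed an adjusted p of 0.05 in a limma model with genotype, for the 9 genes or for any of 14219 genes (0%). At an unadjusted p of 0.05, 5 of the 9 and 855 of 14219 genes (6.01%) had a slope. Without *Nup210*+/+ replicate 2 the count was 3 of the 9, *Neb*, *Myom3* and *Mybpc1*.

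*Myom3* had the steepest slope of the 9, 0.81 on the log2 scale per unit of slow-fiber level (SE 0.164, limma adjusted p = 0.620). Its 3 libraries of lowest slow-fiber level had 14.65, 13.66 and 13.29 TPM and its 4 libraries of highest level had 17.36 to 24.04 TPM. *Nup210*+/+ replicate 3, with a level of 0.00 between these, had the lowest *Myom3* of all, 13.26 TPM. The slopes of *Ttn*, *Neb* and *Mybpc1* were 0.45, 0.40 and 0.36 (limma adjusted p = 0.798, 0.773 and 0.677), and that of *Myom2* was 0.30. The slope of *Ttn* was 0.26 without *Nup210*+/+ replicate 2, and that of *Myom2* was 0.18 without *Nup210*+/+ replicate 4. *Mybpc2* had a slope of 0.00, *Obsl1* of 0.09 and *Mybph* of -0.07. The median slope was 0.30 for the 9 genes and -0.01 over all genes.

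**Figure D4:**
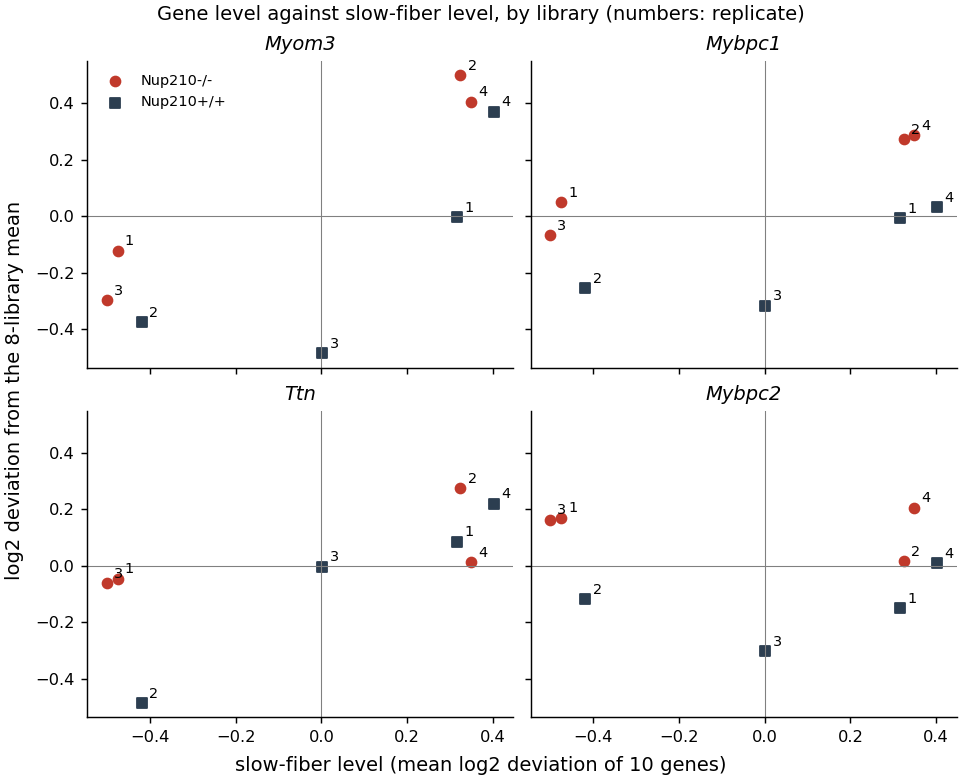
Log2 deviation of *Myom3*, *Mybpc1*, *Ttn* and *Mybpc2* from their 8-library means against the slow-fiber level of the library (mean log2 deviation of 10 genes); red circles are *Nup210*-/-, dark squares *Nup210*+/+, and numbers are replicates. *Myom3* reaches its highest values in 3 libraries of high slow-fiber level, and *Nup210*+/+ replicate 3, in the middle of the axis, is lowest for *Myom3*, *Mybpc1* and *Mybpc2*.

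Over the 8 libraries some of the 9 genes moved together, given as a description since the libraries share the scaling and the genotypes. Pearson r of log2 values was 0.943 for *Myom1* with *Myom2*, 0.905 for *Myom3* with *Mybpc1*, 0.90 for *Myom1* with *Mybpc2* and 0.852 for *Ttn* with *Neb*. *Mybph* had negative r with 6 of the other genes. The genes outside the 9 with the highest r were *1700025G04Rik* (0.964) and *Lpl* (0.954) for *Ttn*, and *Eci1* (0.981) and *Dst* (0.973) for *Neb*. For the M-band genes they were *Suox* (0.992) and *Camk2b* (0.986) for *Myom1*, *Mapk14* (0.987) and *Dnaja2* (0.980) for *Myom2*, *Adk* (0.972) and *Mdp1* (0.969) for *Myom3*, and *Sec14l1* (0.958) and *Pde6g* (0.954) for *Obsl1*. For the myosin-binding genes they were *Cpt1b* (0.977) and *Rab1b* (0.960) for *Mybpc1*, *Cap2* and *Ppp3cb* (0.980 each) for *Mybpc2*, and *Sfrp2* (0.974) and *Slc43a3* (0.970) for *Mybph*.

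The coefficient of variation among mice was larger in *Nup210*+/+ for 9 of 9 genes on scaled TPM, against 61.9% of 14152 genes. On TPM as deposited it was larger for 6 of 9, against 62.7%. The median coefficient of variation of the 9 genes was 8.80% in *Nup210*-/- and 17.8% in *Nup210*+/+ on scaled TPM. For *Mybph* it was 3.48% and 22.5%.

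Genes that work with these proteins were then examined. Of 17 partners of titin none passed an adjusted p of 0.05. Estimates of 14 lay above 0, against 48.7% of all genes tested, and the median was 0.10. They ranged from -0.28 for *Ankrd2* to 0.43 for *Ankrd1*, which encode stress-responsive ankyrin repeat proteins of the titin spring. Among the 14, *Capn3*, *Ankrd23*, *Nbr1*, *Rbm20* and *Rbm24* had a lower mean TPM as deposited in *Nup210*-/-. On scaled TPM 9.38% of all genes tested did not overlap between genotypes in either direction. Of the 17 partners 3 did not, *Tcap*, *Trim54* and *Smyd2*, all higher in *Nup210*-/-. *Trim54* and *Smyd2* overlapped with TPM as deposited. *Tcap*, which encodes the cap of titin at the Z-disc and is named here after its values were seen, averaged 2362 ± 79.5 TPM in *Nup210*-/- against 1974 ± 176 TPM in *Nup210*+/+ (SD, n = 4), with an estimate of 0.36 on the log2 scale (SE 0.0778, limma adjusted p = 0.121).

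Of 17 genes of nebulin and the thin filament, 1 passed the test. *Xirp1*, which encodes an actin-binding adaptor of muscle cell junctions, fell to 66.3 ± 3.31 TPM in *Nup210*-/- from 128 ± 16.4 TPM in *Nup210*+/+ (SD, n = 4), which was -0.84 on the log2 scale (SE 0.106, limma adjusted p = 0.0490). Its libraries lay between 61.57 and 68.68 TPM in *Nup210*-/- and between 110.46 and 148.38 TPM in *Nup210*+/+, without overlap. Its relative *Xirp2* had the largest estimate of this list, 0.27. Of the 17 estimates 11 lay above 0, against 48.7% of all genes tested, and the median was 0.09. Among the 11, *Lmod3*, *Capzb* and *Wasl* had a lower mean TPM as deposited in *Nup210*-/-. Of the 17 genes, 5 did not overlap between genotypes on scaled TPM, against 9.38% of all genes tested. *Klhl40*, *Klhl41*, *Tmod1* and *Xirp2* were higher in *Nup210*-/-, and *Xirp1* was lower. *Klhl40*, *Tmod1* and *Xirp2* overlapped with TPM as deposited.

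Of 12 partners of the M-band and thick filament 10 could be tested, since *Mybpc3*, the cardiac form of myosin-binding protein C, and *Mybphl* were listed at or near 0. *Hsp90aa1*, a chaperone that takes part in myosin folding, fell to 60.7 ± 5.89 TPM in *Nup210*-/- from 130.7 ± 28.0 TPM in *Nup210*+/+ (SD, n = 4), which was -0.98 on the log2 scale (SE 0.138, limma adjusted p = 0.0497). Its genotypes did not overlap either, at 53.15 to 67.50 TPM against 103.74 to 168.93 TPM. On scaled TPM 2 of the 10 did not overlap, against 9.38% of all genes tested, *Hsp90aa1* and *Speg*, which was higher in *Nup210*-/-. *Speg* overlapped with TPM as deposited, where *Ccdc8* was lower in *Nup210*-/- without overlap. The other 9 did not pass, with estimates up to 0.38 for *Igfn1*, and the median of the 10 was 0.10. Neither *Xirp1* nor *Hsp90aa1* passed with any of the 8 libraries left out, and each passed under 7 of 19 alternatives in all. Their estimates stayed between -0.93 and -0.76 and between -1.08 and -0.85, with limma adjusted p up to 0.226 and 0.232.

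**Figure D5:**
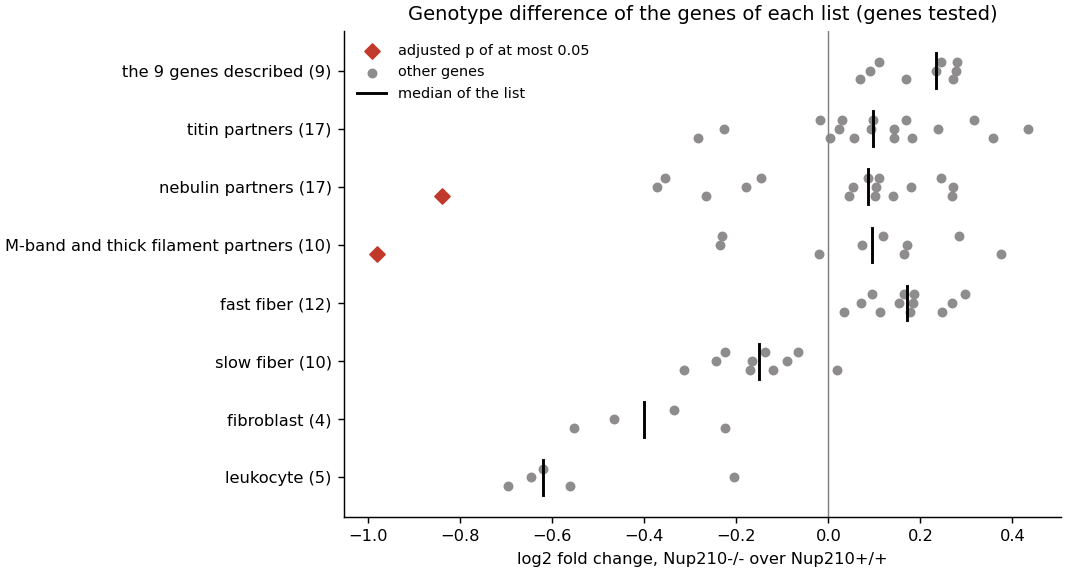
Log2 fold change (*Nup210*-/- over *Nup210*+/+) of each gene of 8 lists, with the number of genes tested in brackets and a bar at the median; red diamonds passed an adjusted p of 0.05. *Xirp1* and *Hsp90aa1* are the 2 diamonds, at -0.84 and -0.98, and the 9 genes described lie between 0.07 and 0.28.

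Fiber-type lists did not show calls either. Of 12 fast-fiber genes 12 estimates lay above 0 (median 0.17, from 0.03 for *Casq1* to 0.30 for *Myh4*), against 48.7% of all genes tested. *Myh4*, *Mylpf*, *Tnnt3*, *Tnni2*, *Pvalb* and *Atp2a1* of this list are also among the muscle fiber genes above. Of 10 slow-fiber genes 9 lay below 0 (median -0.15, from -0.31 for *Myl3* to 0.02 for *Myh7*). Mean TPM as deposited was lower in *Nup210*-/- for *Casq1* and *Myl1*, and also for *Myh7*. The differences within the slow list were small beside the spread between libraries, whose sums lay between 1246 and 2233 TPM in *Nup210*-/- and between 1483 and 2364 TPM in *Nup210*+/+.

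On GRCm38 the 9 genes lie on 7 chromosomes. *Ttn* (chr2:76703980-76982547) and *Neb* (chr2:52136647-52378474) share chromosome 2, and *Obsl1* (chr1:75479310-75506452) and *Mybph* (chr1:134193448-134201232) share chromosome 1. *Myom1* (chr17:71002633-71126856), *Myom2* (chr8:15057653-15133541), *Myom3* (chr4:135759715-135815564), *Mybpc1* (chr10:88518279-88605152) and *Mybpc2* (chr7:44501699-44524656) lie apart. Exons of 6 of the 9 overlap a gene on the opposite strand, and of these *Myl12a*, which overlaps *Myom1*, had a mean of 342 TPM while *Adora1* (2.12 TPM) beside *Mybph* was low. The libraries were directional, but whether the counting used strand is not given in the sources used here, so reads of *Myom1* and *Myl12a* may not be fully told apart.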

How the data were processed

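RNA of quadriceps muscle from 4 *Nup210*-/- and 4 *Nup210*+/+ mice was sequenced from one end after polyA selection, with 1 library per mouse. The authors trimmed reads with cutadapt 2.3, aligned them to mm10 with STAR 2.7.0d and estimated expression with RSEM 1.3.1. They deposited TPM per gene and library. Depth is unknown and no interval for a single library is given. The authors tested estimated counts, which were not used here.

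TPM were divided per library by the median of ratios over 15225 genes above 0 in all libraries. Genes whose mean reached 0.5 TPM were tested as log2(scaled TPM + 1), which understates changes of low genes, with limma 3.58.1 in R 4.3.3 (eBayes with trend, Benjamini-Hochberg adjustment, threshold 0.05). Exact permutation tests were two-sided over 70 labelings. Groups came from sample labels. The model was tested on simulated data. The 9 genes and the lists were chosen with earlier results of these data known. Named list genes were those called and those with the largest and smallest estimate, and for each of the 9 genes the 2 genes of highest r. Some further list genes are named for their values or as examples. Some genes of the lists are not reported here. A pooled correlation with slow-fiber level was planned and is not given, because the libraries fell into clusters. Annotation was GENCODE M21 and figures used matplotlib 3.10.9. Alternatives were pseudocounts of 0.1 and 0.5, other filters and scalings, eBayes without trend or robust, library weights, the replicate number as a block and each library left out.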

Additional observations from a re-analysis of the deposited data

Results flagged for a closer look

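*Myom2* in *Nup210*+/+ replicate 4 lay far from the other 3 *Nup210*+/+ libraries on scaled TPM. On scaled TPM it was 410.07, against 291.66 to 296.46 in replicates 1 to 3, and its gap to the nearest of them was 0.959 of the range of the group. The *Nup210*-/- libraries had 356.22 to 427.76. With TPM as deposited *Nup210*+/+ replicate 4 had 391.31, against 302.26 to 332.96 in replicates 1 to 3, a smaller gap relative to the range. The flag of this library therefore rests on the scaled values. Without this library the log2 fold change was 0.40 (limma adjusted p = 0.0700, the lowest of the 8 fits with 1 library left out, which reached 0.528). Of 26 groups examined this way, chance alone flags 1.3.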

How the results depend on the processing

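None of the 9 genes was called under any of the 19 alternatives, and none had a called slope on slow-fiber level under any of 18. The count of all genes called was 16 and changed to 1 with every gene above 0, 27 at a mean TPM of at least 1, 10 without mitochondrial genes and the 20 highest genes, 84 with library weights and 0 to 10 with 1 library left out. It was 0 with upper-quartile scaling, with eBayes without trend and with the replicate number as a block, where limma gave 2071, 1952 and 1850 genes at an unadjusted p of 0.05. The replicate numbers did not pair the mice: same-numbered deviations had r of -0.0329 to 0.0857, and 1 of 4 correlated best with its own number. Of the 9 genes, 1 did not overlap on scaled TPM, 2 with TPM as deposited, 0 with upper-quartile scaling, 2 without mitochondrial and the 20 highest genes, and 1 to 4 with 1 library left out. The log2 fold change of *Ttn* was -0.00238 with TPM as deposited and ranged from -0.0553 to 0.180 with 1 library left out, lowest without *Nup210*+/+ replicate 2. That of *Mybph* was -0.0269 with TPM as deposited and ranged from -0.0311, without *Nup210*+/+ replicate 4, to 0.205. The slope of *Mybpc2* was -0.0742 with TPM as deposited, -0.0432 without mitochondrial and the 20 highest genes, -0.0210 with library weights and -0.0644 to 0.0787 with 1 library left out, where those of *Obsl1* and *Mybph* ranged from -0.00774 to 0.193 and from -0.251 to 0.0522. With 1 library left out the difference in *Mybpc1* share was -0.582 to 1.499 percentage points (-0.582 without *Nup210*-/- replicate 2 and -0.0517 without *Nup210*+/+ replicate 3), in *Mybph* share -3.16 to -0.195, in *Myom3* share -0.173 to 0.201, and in the log2 ratio of *Neb* to *Ttn* 0.01 to 0.14. The cause was not tested. With 4 mice per genotype and unknown depth, the widest 95% interval of these genes, that of *Myom3*, reached from -0.27 to 0.77 on the log2 scale.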

Other observations

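Genes of other cell types and of regeneration were measured beside the 9 genes. Of 7 regeneration genes none was called, with a median log2 fold change of 0.08, from -0.27 for *Myog*, a myogenic transcription factor, to 0.33 for *Ncam1*. Estimates of 5 of 5 leukocyte genes tested lay below 0 (median -0.62, from -0.70 for *Itgam* to -0.21 for *Cd68*), as did 6 of 6 granulocyte precursor genes (median -1.45, from -1.83 for *Ctsg* to -0.87 for *Cebpe*), which rest on *Nup210*+/+ replicate 2. Of 4 fibroblast genes 4 lay below 0 (median -0.40, from -0.55 for *Col1a1* to -0.23 for *Pdgfra*), and medians were -0.21 for smooth muscle (*Acta2* -0.41, *Myh11* -0.01) and -0.32 for tendon (*Tnmd* -0.55, *Scx* -0.09). Endothelial genes (*Cdh5* 0.08, *Pecam1* -0.08) and adipocyte genes (*Plin1* -0.07, *Adipoq* -0.15) had estimates nearer to 0. None of these genes passed an adjusted p of 0.05 (limma).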
